A study of Oryza sativa with 12 samples.

Results

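In rice shoots, 192 genes gained transcripts when seedlings were chilled late in the light period and lost transcripts when they were chilled late in the dark period. They were found among 40424 identifiers by a rule on group means. Counts were divided by median-of-ratios size factors, and the level of a gene in a group was defined as log2 of the mean normalized count plus 1. A gene was kept when its highest level was at least 8, when its level was at least 1 higher in chilled than in normal seedlings at dusk, and when it was at least 1 lower in chilled than in normal seedlings at dawn. The level was reached by 16290 identifiers, of which the 192 are 1.18%. With the same thresholds 1265 genes were higher after chilling at both times, 781 were lower at both, and 78 moved in the reverse way, down at dusk and up at dawn.

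The plants were the indica rice cultivar 93-11, with all above-ground tissue taken at the stage of 3 leaves. Every library title carries the label WT (wild type). CT24 seedlings spent 4 h at 13 °C from Zeitgeber time (ZT, hours after lights-on) 20 to 24 and were harvested at the end of the night, while NT24 seedlings stayed at 28 °C. CT12 and NT12 seedlings were the corresponding chilled and normal plants for ZT8 to ZT12, the end of the day. All had grown for about 10 days at 28 °C in equal light and dark periods, and each of the 4 groups had 3 biological repeats of 5 plants. Totals per library lay between 42966604 and 52762123 counts. CT12 replicate 2 stood apart from the other CT12 libraries, with 138 and 139 as its chi-square per gene against them, compared with 32.3 between those libraries. NT24 replicate 1 stood apart less far, with 75.6 and 89.5 against the other NT24 libraries and 25.5 between those.

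The circadian clock of plants is a network of transcription factors that repress each other in turn through the day, so that many genes have a daily peak near dawn or near dusk. Cold signalling is known to be gated by the clock, which means that the same cold exposure can change a transcript by a different amount at different hours. In rice, a plant of warm climates, temperatures well above freezing already count as chilling stress. The series title names the coordination of clock and chilling response as its subject.

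The files give the genes as identifiers without names, and 0 of the 40424 identifiers matched the reference gene table, so no function is assigned to any gene here. The labelled tissue could not be checked against marker genes for the same reason. Of the 192 genes, 184 had identifiers beginning with OsR498G, and 8 were numbered like Novel00951, a kind of identifier that the labels do not explain. Identifiers of this second kind made up 4.17% of the 192 genes and 2.78% of all genes that reached the level. Among the 192 genes 4 pairs stood directly next to each other when identifiers were sorted. How reads shared by near-identical or overlapping genes were counted is not stated, so the counts of any such genes are uncertain.

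The size of the responses was part of the rule and is given as a description. The median change at dawn, CT24 minus NT24, was -1.55, and the changes ran from -6.58 to -1.003. The median rise at dusk, CT12 minus NT12, was 1.94, and the rises ran from 1.002 to 6.91. In bulk tissue fewer cells expressing a gene and less of its RNA per cell cannot be told apart. Rise and fall both reached 2 for 36 genes and 3 for 9 genes. At the edges of the rule the smallest rise inside was 1.002 and the largest outside 0.999, the smallest fall was -1.003 inside and -0.997 outside, and the highest level of a gene was at least 8.01 inside and at most 7.97 outside. For 62 genes the fall was smaller than 1.25, and for 32 genes the rise was.

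**Figure D1:**
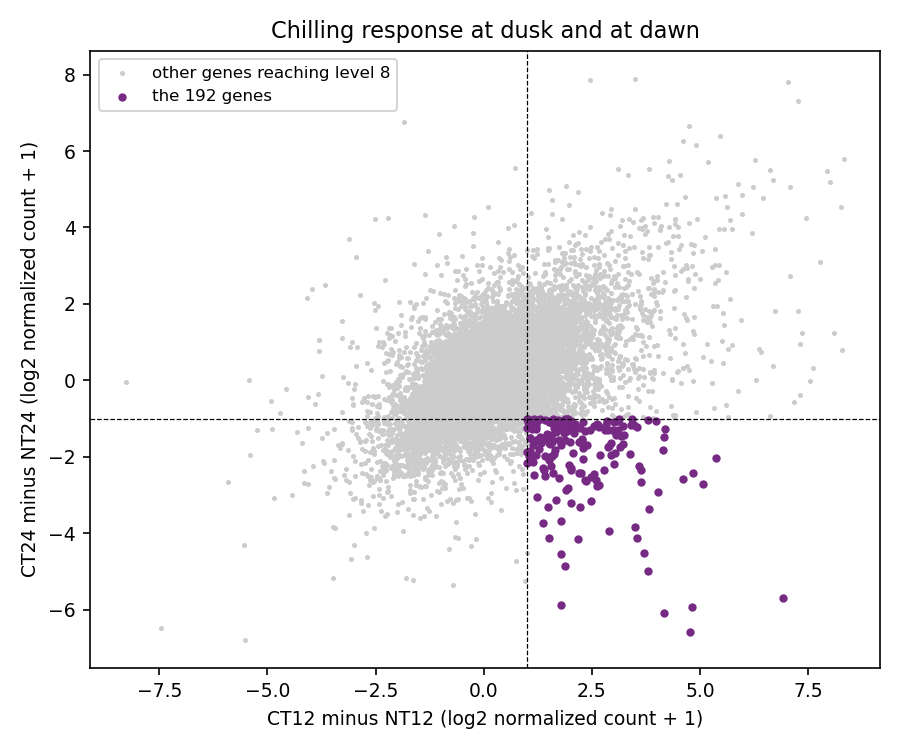
Chilling response at dusk (x axis, CT12 minus NT12) against that at dawn (y axis, CT24 minus NT24), both as differences of log2 normalized counts, for every gene that reached level 8. The 192 genes fill the lower right corner by the rule (dashed lines at 1 and -1), and 9 of them lie beyond 3 on both axes.

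For 163 of the 192 genes the libraries themselves separated at both times, with all CT24 libraries below all NT24 libraries and all CT12 libraries above all NT12 libraries. The same held for 5.05% of all genes that reached the level; the rule used these contrasts, so nothing is read from that difference. The rule returned 163 to 206 genes when 1 library was left out, and 121 of the 192 were found in all 12 of these repeats. The fewest of the 192 remained without NT24 replicate 1, with 156 of them among 163 found. Spread between repeats was somewhat wider than for other genes of this level, with a median biological coefficient of variation of 0.211 against 0.179. The rise at dusk also depended on scaling. Under total-count scaling its median was 1.20 in place of 1.94. All 192 still rose on that scale, 112 of them by at least 1, while all 192 fell by at least 1 at dawn.

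Together the 192 genes held a share of the counts that differed between the 4 groups. The rule asked each gene for a rise at dusk and a fall at dawn. The direction of the share between chilled and normal plants at each time is therefore a description and no separate result. This share of all counts was 1.52%, 1.62% and 1.43% in the CT24 libraries, against 7.03%, 5.91% and 6.40% in the NT24 libraries. At dusk it was 12.3%, 10.1% and 11.9% in the CT12 libraries, against 2.71%, 2.73% and 3.01% in the NT12 libraries. No group overlapped another.

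Most of these counts came from 20 abundant genes. The 20 with the highest mean level held 0.861% ± 0.0826 of counts in CT24 and 4.42% ± 0.518 in NT24, and 10.2% ± 1.12 in CT12 and 2.30% ± 0.152 in NT12 (SD, n = 3 each). The other 172 held 0.662% ± 0.0241 in CT24 and 2.03% ± 0.0469 in NT24, and 1.22% ± 0.0636 in CT12 and 0.515% ± 0.0161 in NT12. The abundant genes were thus highest in CT12 as a sum, and the others in NT24. Gene by gene, 16 of the 20 peaked in CT12 and 4 in NT24, while 55 of the 172 peaked in CT12 and 117 in NT24.

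**Figure D2:**
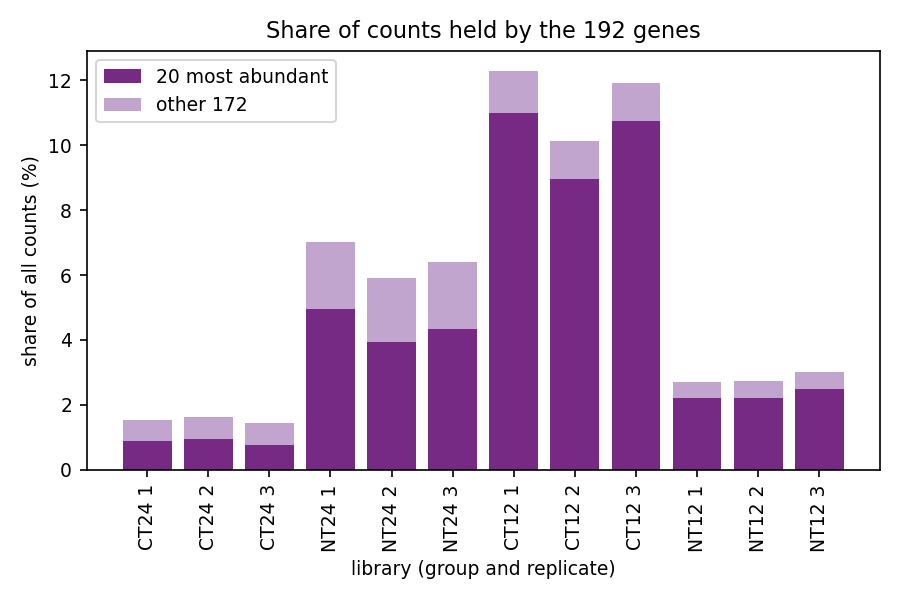
Share of all counts (y axis, percent) held by the 192 genes in each of the 12 libraries (x axis), split into the 20 genes with the highest mean level (dark) and the other 172 (light). CT12 libraries stand highest, at 10.1% to 12.3%, and CT24 libraries lowest, at 1.43% to 1.62%.

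Time of day was examined next, since averaging over the temperatures gives a comparison orthogonal to both chilling contrasts. Its error is independent of those contrasts only if spread is equal in all groups. The minimum level is a further choice made on the same libraries. Whether a rule that picks genes with large changes also favours genes that differ by time of day was not tested. Across ZT24 and ZT12, the mean of CT24 and NT24 was higher than the mean of CT12 and NT12 for 113 of the 192 genes and lower for 48 (edgeR's quasi-likelihood test across 24700 genes, adjusted p below 0.05); all 192 were tested. These are 58.9% and 25.0% of the 192. The average does not stand for each temperature. Of the 113, 37 were called higher at ZT24 at both temperatures, 41 at 28 °C alone, and 35 were called lower at 13 °C. Of the 48, 11 were called lower at both temperatures, 19 at 13 °C alone, and 18 were called higher at 28 °C. Of all genes tested, 27.3% were called higher and 25.5% lower at ZT24, and of all genes that reached level 8, 33.5% and 29.9%. The median log2 difference was 0.89 for the 192 genes and 0.05 for all genes tested. The share called higher at ZT24 was above both backgrounds, and the share called lower was near them. Without CT12 replicate 2, 115 genes were called higher and 53 lower, and without NT24 replicate 1, 112 and 47. Of the 78 genes that moved in the reverse way, down at dusk and up at dawn, 26.9% were called higher and 42.3% lower.

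Of the 20 most abundant genes, 5 were called higher and 13 lower at ZT24, against 108 and 35 of the other 172. This split was made after the values were seen, and ranking by the mean over all 12 libraries favours genes that are very high in CT12, so the difference between the sets was not tested.

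Within each temperature the rule bears on the comparison. Because a rise at dusk and a fall at dawn were both asked for, ZT24 minus ZT12 had to be at least 2 log2 units lower at 13 °C than at 28 °C. At 28 °C, NT24 was higher than NT12 for 157 of the 192 genes and lower for 11 (edgeR's quasi-likelihood test), where 23.2% and 20.9% of all genes were called. The median log2 difference was 2.81. At 13 °C, CT24 was higher than CT12 for 37 genes and lower for 110, where 20.3% and 21.8% of all genes were called. The median log2 difference was -1.05. Neither of these comparisons is independent of the rule, which fixes how far they lie apart.

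The calls at 28 °C and 13 °C sorted all 192 genes into 5 patterns, named A to E here. How many of all genes show each pattern was not counted. The rule bears on both calls, so the sizes of the patterns are a description. Pattern A, with 37 genes, was higher at ZT24 at both temperatures. Pattern B, with 45 genes, was higher at ZT24 at 28 °C and not called at 13 °C. Pattern C, with 75 genes, was higher at ZT24 at 28 °C and lower at ZT24 at 13 °C, so that its daily difference had the opposite sign in chilled plants. Pattern D, with 24 genes, was not called at 28 °C and lower at ZT24 at 13 °C. Pattern E, with 11 genes, was lower at ZT24 at both temperatures.

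**Figure D3:**
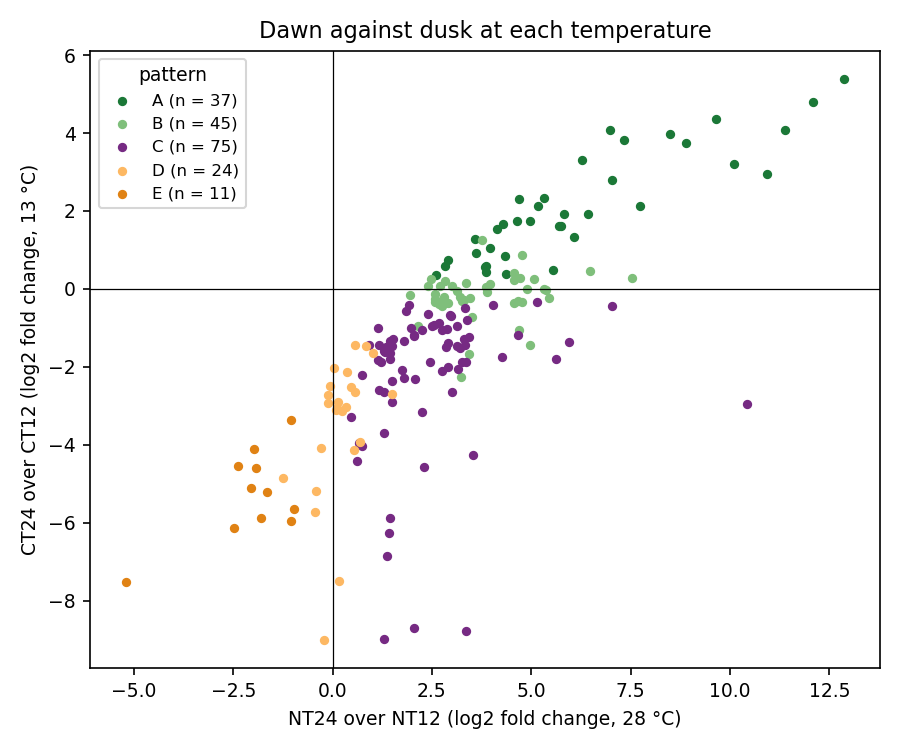
Log2 fold change between ZT24 and ZT12 at 28 °C (x axis) and at 13 °C (y axis) for the 192 genes, coloured by pattern. The 75 genes of pattern C lie right of 0 on the x axis and below 0 on the y axis, and the 11 genes of pattern E are negative on both.

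**Figure D4:**
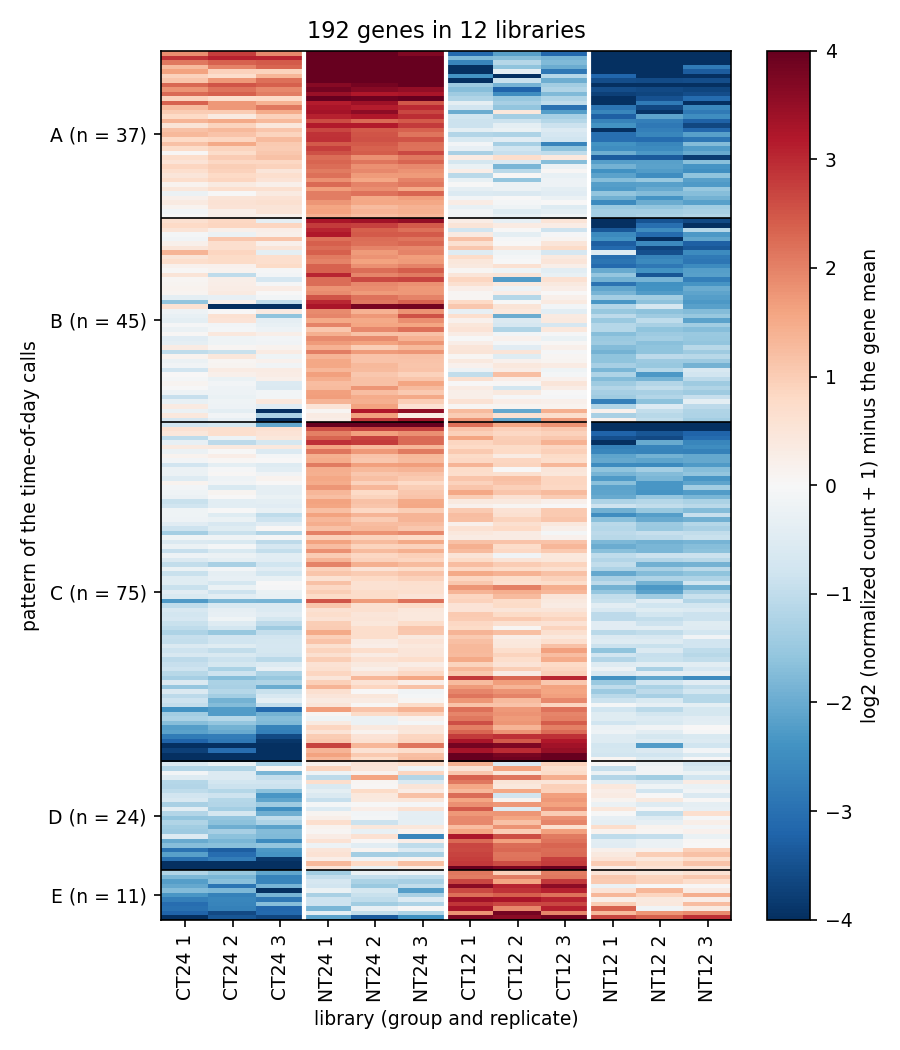
Each line is 1 of the 192 genes and each column 1 of the 12 libraries; colour is log2 of the normalized count plus 1, minus the gene's mean over the libraries, limited to 4 in either direction. Genes are ordered by pattern and then by their mean difference between ZT24 and ZT12. The 37 genes of pattern A are highest in NT24 and the 11 of pattern E in CT12, as the rule and the calls require.

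The genes of pattern A were higher at the end of the night than at the end of the day at either temperature. The median gene had 685 normalized counts in CT24 and 4574 in NT24, and 284 in CT12 and 54.3 in NT12. All 37 had their lowest level in NT12 and their highest in NT24, an order that the rule and the 2 calls together fix. At dusk they were higher in CT12 than in NT12 by a median of 1.79 log2 units. CT12 lay a median of 3.39 log2 units under the level of NT24 (CT12 minus NT24, -3.39). Their share of all counts averaged 0.285% in CT24 and 1.04% in NT24, and 0.0701% in CT12 and 0.0395% in NT12. Of its 37 genes, 3 had identifiers of the second kind, as did 5 of the 75 in pattern C.

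OsR498G0815231500.01, 1 of the 20 most abundant genes, belonged to pattern A. It had 39499, 45475 and 45042 normalized counts in the CT24 libraries and 251359, 213159 and 230075 in the NT24 libraries. At dusk it had 1572, 1671 and 1500 in CT12 and 51.1, 41.6 and 69.5 in NT12. No libraries of different groups overlapped. The level at ZT24 exceeded that at ZT12 by 8.43 log2 units over both temperatures (SE 0.16, edgeR adjusted p = 2.47e-11), by 12.08 at 28 °C (SE 0.26, edgeR adjusted p = 1.27e-10) and by 4.79 at 13 °C (SE 0.19, edgeR adjusted p = 1.82e-08). Chilling changed it by -2.43 at dawn (SE 0.17) and by 4.86 at dusk (SE 0.20).

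Novel00951 showed the same order on few counts. It had 76.4, 144 and 78.9 normalized counts in CT24 and 1608, 767 and 278 in NT24. In CT12 it had 5 counts in all, giving 1.47, 3.73 and 1.40 normalized counts, and in NT12 it had none. For this gene the rise at dusk, 4.31 log2 units (SE 1.88), rests on these 5 counts and is poorly measured. With a floor of 3 counts over the NT12 libraries, its level was at least 1233-fold higher in NT24 than in NT12, and at least 729-fold higher without NT24 replicate 1, which had the highest value. The edgeR adjusted p of NT24 over NT12 was 1.02e-05. CT24 exceeded CT12 by 5.39 log2 units (SE 0.83, edgeR adjusted p = 0.000653). It was not called by limma-voom, with an adjusted p of 0.143; over all alternatives the adjusted p ranged from 1.91e-09 to 0.143.

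In pattern B the night-high difference of normal plants was not called in chilled plants. The median gene had 733 normalized counts in CT24 and 2705 in NT24, and 890 in CT12 and 254 in NT12. At 28 °C NT24 exceeded NT12 by a median of 3.43 log2 units, and at 13 °C the median of CT24 over CT12 was -0.17, with values from -2.26 to 1.25. The rule and the call at 28 °C already place NT24 above CT24 and NT12, and NT12 below CT12. NT24 was the highest group for all 45, and NT12 the lowest for 43. A missing call at 13 °C does not show that the levels were equal.

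The pattern B gene with the highest mean, chosen after its values were seen, was OsR498G0713563400.01. It had 9799, 11750 and 11092 normalized counts in CT24 and 29303.5, 23930 and 21928 in NT24. The dusk values were 11555.5, 6552 and 9129 in CT12 and 862, 1077 and 964 in NT12. CT24 and CT12 libraries overlapped, and CT24 over CT12 was 0.27 on the log2 scale (SE 0.19, edgeR adjusted p = 0.291). NT24 exceeded NT12 by 4.71 (SE 0.22, edgeR adjusted p = 2.31e-08).

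Pattern C, the largest, held the most counts. Its 75 genes took 0.999% ± 0.0872 of counts in CT24 and 4.15% ± 0.459 in NT24, and 7.87% ± 0.758 in CT12 and 1.69% ± 0.0832 in NT12 (SD, n = 3 each). The median gene had 1868 normalized counts in CT24 and 7261 in NT24, and 5334 in CT12 and 1308 in NT12. The highest group was CT12 for 36 genes and NT24 for 39, and the lowest was NT12 for 48 and CT24 for 27. The rule and the calls place CT12 and NT24 both above NT12 and CT24 and leave their own order open. The median of CT12 minus NT24 was -0.0045, with values from -2.77 to 2.90. Size factors were 0.680 to 0.803 in CT12 and 0.994 to 1.01 in NT24, so this difference depends on the scaling. No match of the 2 levels is read from it. Averaged over temperatures, 35 were called higher and 18 lower at ZT24, where 27.3% and 25.5% of all genes were, and 22 were not called. Of the 20 most abundant genes 15 belonged here, as did 8 of the 9 whose rise and fall both reached 3.

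The most abundant of the 192 genes, OsR498G0306485300.01, followed this pattern. It had 2537, 2668 and 2237 normalized counts in CT24 and 187467, 127277 and 139276 in NT24. In the dusk libraries it reached 1182120, 840167 and 1081770 in CT12 and 35816, 34893 and 39966 in NT12. The libraries of the 4 groups did not overlap. NT24 exceeded NT12 by 2.05 log2 units (SE 0.20, edgeR adjusted p = 6.71e-06), while CT24 over CT12 was -8.70 (SE 0.27, edgeR adjusted p = 3.42e-09). CT12 lay 2.75 log2 units above NT24 (SE 0.21), so its level after chilling at dusk exceeded that of the normal dawn.

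OsR498G0101476300.01 was alike in shape and had the largest fall at dawn among those of the 192 that averaged at least 5 CPM (counts scaled to library size). It had 720, 578 and 367 normalized counts in CT24 and 43380, 28577 and 41590 in NT24, a log2 change of -6.11 (SE 0.32). Its dusk libraries held 309979, 256786 and 279041 in CT12 and 18099, 12375 and 16834 in NT12, a log2 change of 4.15 (SE 0.29). The libraries of its 4 groups did not overlap. CT24 over CT12 was -8.98 (SE 0.36, edgeR adjusted p = 1.82e-08), and NT24 over NT12 was 1.28 (SE 0.26, edgeR adjusted p = 0.00175).

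The largest rises at dusk also belonged to pattern C, at lower levels. OsR498G0307156300.01 had 41.4, 43.4 and 16.0 normalized counts in CT24 and 2406, 1162 and 1799 in NT24. Chilled dusk libraries had 328, 210 and 248 (CT12), against 0.73, 2.82 and 0 in NT12. The rise of 7.63 log2 units (SE 0.64) rests on 5 counts over the NT12 libraries, so its size is poorly measured. For OsR498G0306485300.01, ZT24 minus ZT12 averaged over both temperatures was -3.32 (SE 0.15, edgeR adjusted p = 7.55e-09). For OsR498G0307156300.01 this average was 3.74 (SE 0.40, edgeR adjusted p = 9.2e-06), and it rests on the same 5 NT12 counts. NT24 over NT12 was 10.43 (SE 0.67, edgeR adjusted p = 2.29e-07). CT24 over CT12 had the opposite sign, at -2.95 (SE 0.45, edgeR adjusted p = 0.000291).

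OsR498G0613338800.01 had 1836, 1920 and 1847 normalized counts in CT24 and 7195, 7855 and 7937 in NT24. Its dusk counts were 2669, 2358 and 2547 in CT12 and 66.4, 52.9 and 59.5 in NT12, a rise of 5.39 log2 units (SE 0.12). Its repeats lay close together. CT24 over CT12 was -0.43 (SE 0.10, edgeR adjusted p = 0.0047). This call was lost under total-count scaling, where the log2 difference was -0.11 with an edgeR adjusted p of 0.384, and under no other alternative tried; over all of them the adjusted p ran from 6.92e-05 to 0.384. NT24 over NT12 was 7.02 (SE 0.13, edgeR adjusted p = 5.11e-11).

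The genes of patterns D and E had their highest level in chilled seedlings at dusk. The median gene of pattern D had 397 normalized counts in CT24 and 1246 in NT24, and 2045 in CT12 and 905 in NT12. The median gene of pattern E had 48.6 in CT24 and 106 in NT24, and 3650 in CT12 and 1521 in NT12. The rule and the calls fix the order of the groups in E, with CT12 highest and CT24 lowest for all 11 genes. In D they already place CT12 above NT12 and CT24, and CT24 below NT24. CT12 was the highest group for all 24 genes of D, and CT24 the lowest for 23. Pattern D held 0.0786% of counts in CT24 and 0.695% in NT24, and 3.27% in CT12 and 0.977% in NT12; pattern E held 0.102% or less in every group.

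OsR498G0917206700.01 of pattern D was the second most abundant of the 192. It had 2079, 2028 and 1052 normalized counts in CT24 and 66117, 39146 and 57576 in NT24. CT12 was far above the other groups: the dusk libraries held 1030310, 655782 and 976493 in CT12 and 55898, 67795 and 68446 in NT12. NT24 and NT12 libraries overlapped, and NT24 over NT12 was -0.22 on the log2 scale (SE 0.29, edgeR adjusted p = 0.586). Over the alternatives the adjusted p ran from 0.0474 to 0.958, and the call was made under total-count scaling alone, at -0.66. CT24 over CT12 was -9.00 (SE 0.41, edgeR adjusted p = 3.97e-08).

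OsR498G0102602400.01 of pattern E was the gene most strongly tilted to dusk. It had 19.3, 35.1 and 30.1 normalized counts in CT24 and 89.8, 37.2 and 71.4 in NT24, and 5306, 4738 and 5615 in CT12 and 2453, 1973 and 2943 in NT12. Over both temperatures, ZT24 minus ZT12 was -6.36 (SE 0.23, edgeR adjusted p = 1.72e-09). Its chilling responses were small, -1.25 at dawn (SE 0.31) and 1.08 at dusk (SE 0.25), and with 1 library left out they reached -0.92 and 0.95 on the scale of the rule, outside its thresholds.

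OsR498G0713510500.01, also of pattern E, owed its place to 1 library. It had 92.02, 69.2 and 98.4 normalized counts in CT24 and 660, 433 and 366 in NT24. At dusk it had 2996, 12080 and 3315 in CT12 and 2095, 2941 and 3199 in NT12, and these groups overlapped. Without CT12 replicate 2 the rise on the scale of the rule was 0.21 in place of 1.16. ZT24 over ZT12 was -2.48 at 28 °C (SE 0.48, edgeR adjusted p = 0.00138) and -6.13 at 13 °C (SE 0.58, edgeR adjusted p = 7.12e-06); without CT12 replicate 2 the value at 13 °C was -5.18.

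**Figure D5:**
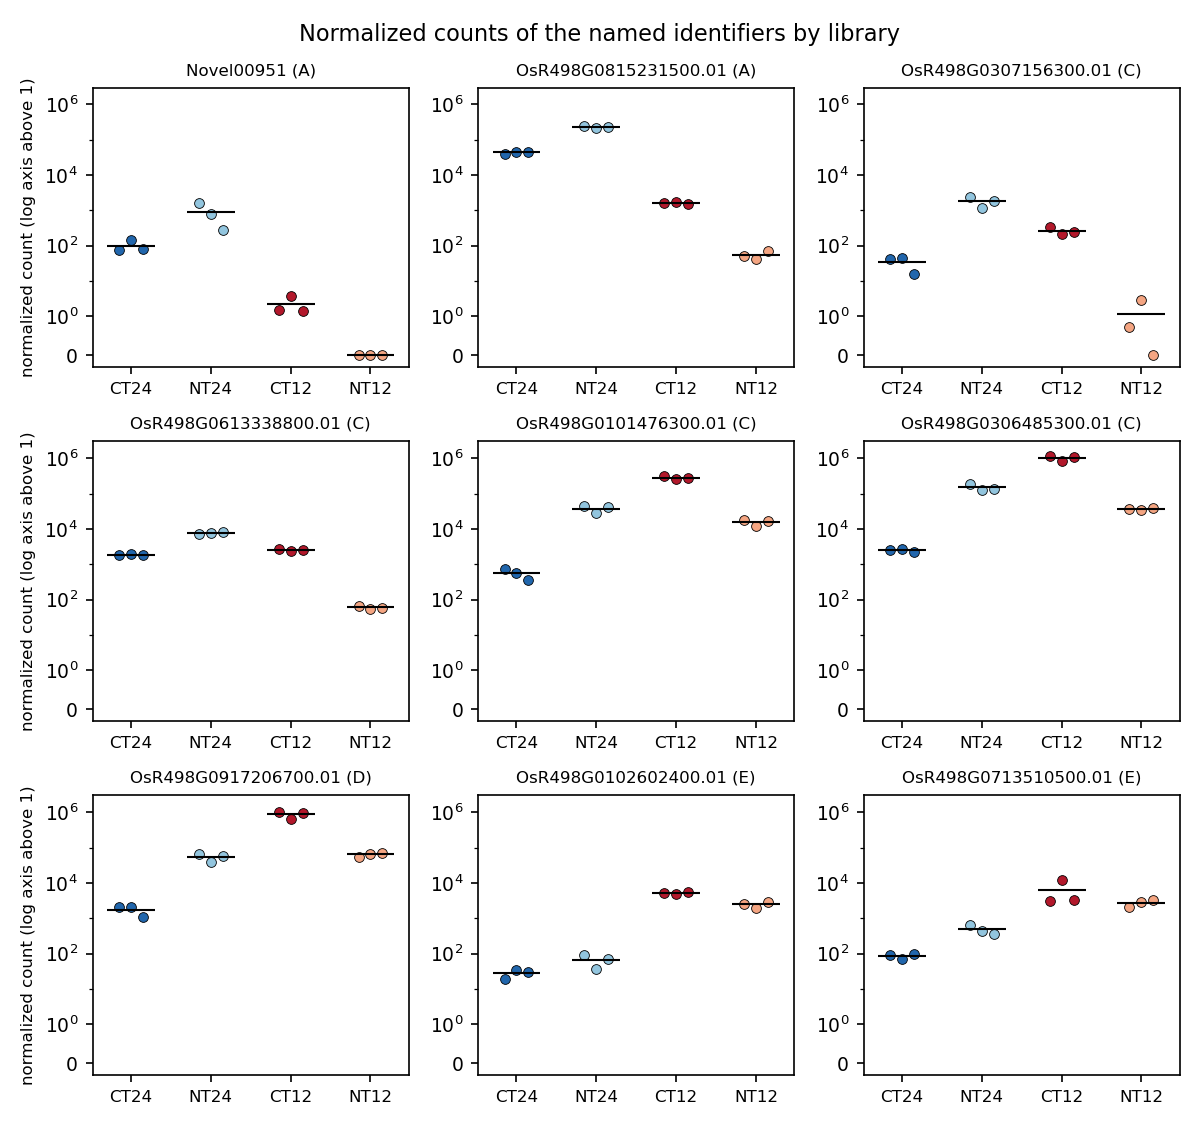
Normalized counts (y axis, logarithmic above 1) in the 3 libraries of each group (x axis, points) with the group mean (line) for the 9 identifiers picked by rule, with the pattern letter in each title. OsR498G0306485300.01 reaches 1182120 in CT12 and 2668 or less in CT24.

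The levels reached under chilling were also set against the normal level at the opposite time. After chilling at dusk the median difference from the normal dawn level, CT12 minus NT24, was -0.61 log2 units, with values from -8.11 to 6.28. All CT12 libraries lay above all NT24 libraries for 52 of the 192 genes and below for 102, where 36.5% and 32.7% of all genes that reached the level did so. After chilling at dawn the median difference from the normal dusk level, CT24 minus NT12, was 1.15, with values from -6.40 to 9.62. All CT24 libraries lay above all NT12 libraries for 115 genes and below for 48, where 39.1% and 32.2% of all genes of that level did so. These comparisons change temperature and hour together and share libraries with the rule, so they are given as a description. They also depend on scaling and were not repeated under other scalings. Size factors were 0.680 to 0.803 in CT12 and 0.994 to 1.01 in NT24, and 0.968 to 1.13 in CT24 and 1.37 to 1.42 in NT12. By pattern the median of CT12 minus NT24 was -3.39 in A, -1.61 in B, 1.64 in D and 3.65 in E. The rule and the calls that define the patterns fix the sign in A and E, so this order is no separate result.

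All 6 orders of the 4 groups that the rule permits occurred, unevenly filled. The commonest, with 59 genes, ran NT24, CT12, CT24, NT12 from high to low, and 53 genes had NT24, CT24, CT12, NT12. CT12 came first for 71 genes, of which 35 ran CT12, NT24, NT12, CT24. The lowest group was NT12 for 129 genes and CT24 for 63.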

How the data were processed

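The authors deposited whole-number counts per gene identifier for 12 libraries, not normalized. Per the submitters' processing notes, HISAT2 2.0.4 was used; its role, the counter, genome build, annotation and strand setting are not stated in the sources used here. Libraries were made from total RNA with a NEBNext Ultra kit, per the labels' protocols.

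The 192 genes, the patterns and the comparisons were chosen with earlier results of these data known. Size factors, levels and the rule were computed in Python 3.11.15. Counts were tested in R 4.3.3 with edgeR 4.0.16: expression filter (24700 genes kept, 15724 set aside), TMM scaling, 1 mean per group over all 12 libraries, 8 residual degrees of freedom, Benjamini-Hochberg adjustment over all genes tested. Standard errors (SE) come from the F statistic. Normalized counts use median-of-ratios size factors (0.680 to 1.42), and log2 changes of single genes use edgeR. Libraries of a group differed by far more than sampling noise and each counted once.

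Identifiers were named by size: up to 2 per direction for each comparison and the 2 most abundant, averaging at least 5 CPM, with 1 pattern B gene added after its values were seen. Alternatives were other scalings, no filter, DESeq2 1.42.0, limma-voom 3.58.1, a replicate block, and each library left out. Floors cover counting error only.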

Additional observations from a re-analysis of the deposited data

How the results depend on the processing

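Under every scaling, filter and tool tried, 112 to 114 of the 192 genes were called higher and 46 to 50 lower at ZT24 averaged over temperatures, and with 1 library left out 111 to 115 and 45 to 53. The 157 genes called higher at 28 °C ranged from 149 to 160 over all alternatives, and the 110 lower at 13 °C from 102 to 114. Under total-count scaling 17 genes in place of 11 were called lower at 28 °C, and pattern E likewise held 17; pattern C ranged from 60 under that scaling to 82 with 1 library left out. The counts of patterns A to E under the alternatives were chosen after seeing the data. The rule itself gave 113 genes under total-count scaling (111 of the 192), 194 under TMM scaling, 403 with no minimum level and 78 with a threshold of 1.5. With the replicate number as a block, 114 genes were higher and 48 lower at ZT24 over both temperatures, 153 and 10 at 28 °C, and 35 and 109 at 13 °C. The labels do not say whether a shared replicate number marks a shared batch, and no pairing by number was seen. Over 18 pairs of same-numbered libraries the correlation of deviations from group means ran from -0.586 to 0.449, with 5 above 0.1. In 8 of 36 cases a library correlated best with its own number. With 3 libraries per group these values cannot exclude a shared batch. No time-of-day log2 difference of the 9 identifiers picked by rule changed sign under any alternative. For the other genes only the counts of calls were compared. Depth limits the genes with few counts in NT12, where 6 of the 192 had at most 10 counts over the 3 libraries and 4 had at most 3.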
